A study of Sus scrofa with 27 samples.

Results

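The 10 genes described here are transcripts known to be induced when the kinase ERK is active: the phosphatase genes DUSP6 and DUSP4, the inhibitor genes SPRY2, SPRY4 and SPRED1, the ETS transcription factor genes ETV4 and ETV5, and the immediate early genes EGR1, FOS and IER3. They were chosen by symbol, and each symbol mapped to 1 of the 35670 Ensembl identifiers in the count files. Of these 10 genes, 9 were among the 11384 named genes tested. ETV4 stayed under the filter on low counts, a mean of 5 counts per library.

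The libraries were made from mural granulosa cells (GCs), the cells that line the follicle wall, cut by laser capture microdissection from the largest healthy follicle of each sow. All sows were wild type crosses of Large White and Norwegian Landrace, labelled Large White times Norwegian Landrace, in their first lactation. Full-fed (FF) sows (n = 13) were offered 6.5 kg of feed daily and restricted (RES) sows (n = 14) 3.25 kg over the last 2 weeks of lactation, and both groups were given equal amounts of feed from weaning until ovaries were taken on day 2 after weaning. The RES sows had been picked from a larger trial for the highest body weight loss and the FF sows for the lowest, so diet and weight loss cannot be told apart. The paper reports that the largest healthy follicles were smaller in RES than in FF sows, so diet and follicle size cannot be told apart either. Each library is 1 sow and 1 follicle.

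ERK is the last kinase of a relay in which growth factor receptors load RAS proteins such as NRAS with GTP, RAS recruits RAF kinases, RAF activates MEK, and MEK activates ERK. Active ERK enters the nucleus, phosphorylates ETS factors of the ternary complex that sit with serum response factor on CArG boxes, and so switches on EGR1 and FOS within minutes. More slowly it raises ETV4, ETV5 and its own brakes: DUSP6 removes phosphate from ERK in the cytoplasm, DUSP4 does so in the nucleus, and Sprouty and SPRED proteins hold back the step from receptor or RAS to RAF. In GCs this relay carries the epidermal growth factor-like signal of the ovulatory LH surge and takes part in growth factor responses earlier in follicle growth. Phosphorylated ERK was not measured, so the question asked of these data is only whether transcripts of its output genes moved with diet or with the transcript of NRAS.

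The stretches before the annotated gene starts are shown for DUSP6 and SPRY4, which varied together across sows, and around the CArG box of FOS. They were read from Sscrofa11.1, the build of the counts, at the gene starts of its RefSeq annotation. For DUSP6 (chr5:93302808-93303057, plus strand) and SPRY4 (chr2:143891281-143891530, minus strand) the 250 bases before the start are given 5′ to 3′, and capitals mark CGGAA, the core that ETS factors favour, on either strand. For FOS (chr7:98449042-98449071, plus strand) 30 bases are given, with the CArG box in capitals. It begins 456 bases before the annotated FOS start, which in this annotation is the start codon, and was found by searching 1000 bases before each member's start. FOS was the 1 member of 10 with a match there, EGR1 had 0, and 5.78% of 19553 such windows before protein-coding genes held one. Only exact matches of CCWWWWWWGG, W being A or T, were sought, so boxes that differ by a base were not counted.
DUSP6: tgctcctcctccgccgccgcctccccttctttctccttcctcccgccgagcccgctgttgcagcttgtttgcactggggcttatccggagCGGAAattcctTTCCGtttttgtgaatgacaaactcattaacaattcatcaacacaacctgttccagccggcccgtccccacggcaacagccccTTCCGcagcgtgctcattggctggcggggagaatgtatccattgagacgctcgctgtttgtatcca
SPRY4: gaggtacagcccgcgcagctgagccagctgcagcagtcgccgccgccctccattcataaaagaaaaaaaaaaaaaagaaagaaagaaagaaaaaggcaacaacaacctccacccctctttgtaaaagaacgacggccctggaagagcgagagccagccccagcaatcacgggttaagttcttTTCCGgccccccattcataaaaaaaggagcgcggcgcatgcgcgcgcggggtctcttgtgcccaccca
FOS: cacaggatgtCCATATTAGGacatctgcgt

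CGGAA occurred 3 times in the DUSP6 window, 160, 149 and 66 bases before the start, and 1 time in that of SPRY4, 68 bases before it. Among the other members, the window of SPRY2 held 2 matches, those of SPRED1 and IER3 held 1 each, and those of DUSP4, ETV4, ETV5, EGR1 and FOS held 0. Of 19556 windows of the same length before protein-coding genes, 29.7% held CGGAA, and 2.47% held it at least 3 times. TGANTCA, the letters favoured by FOS and JUN dimers, was found 1 time, before ETV5 (5.27% of all windows). TGACGTCA (1.7% of windows) and the CArG box (1.31% of windows) occurred before none of the 10 members within 250 bases. These are matches of letters in windows that depend on the annotated start, and ETV5 and FOS start at their coding sequence in this annotation.

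The FF libraries held 12299220 to 16021200 counts, with a median of 13490513, and the RES libraries 12942198 to 18120922, with a median of 15232600, and levels below are counts divided by DESeq2 size factors, called normalised counts. Libraries fell into an upper and a lower group by how many of their sequenced bases reached a Phred score of 20, each holding both diets, and results are also given within them. The place of FF sow 10 in the lower group is uncertain, because the FF sow left out for low RNA integrity is numbered 9 in the labels, while the lowest integrity value is listed under number 10. The values within FF quality groups carry this doubt. Fold changes of members and their correlations with NRAS were also computed with FF sow 10 in the upper group, a choice made after the results were seen. Correlations between members and with marker sums within the FF quality groups were not computed that way. The library of RES sow 7 stood apart in markers of other cell types: its summed level was the highest of the RES libraries for theca (12934, next 5113), endothelial (2734, next 1852), immune (355.4, next 150.2) and stromal and vessel-wall markers (42246, next 33302). Granulosa markers were present in all libraries, with a summed level over 9 genes of 77999 to 128533 in FF and 78752 to 156356 in RES. In bulk RNA, fewer cells of a type and less RNA per cell cannot be told apart.

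Of the 9 members tested, 1 fell in RES GCs and 0 rose (edgeR quasi-likelihood test, adjusted p under 0.05), beside 5.85% of all tested genes called lower and 8.29% called higher. The gene that fell was DUSP6. Taking either direction, 1 of 9 members was called against 14.1% of all 11384 genes, a share near the background. With DESeq2's size factors in edgeR the calls over all genes moved from 944 higher and 666 lower to 1197 higher and 522 lower (15.1% in all), and DUSP6 was no longer called (adjusted p = 0.0589). DESeq2 (16.8% of all genes called) and limma voom with sample quality weights (27.9%) each called DUSP6 too and no other member. The median log2 fold change of the 9 members was -0.02, as was that of all tested genes. At an unadjusted p under 0.05, again only DUSP6 passed among the members, against 3420 of all genes (30%).

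**Figure D1:**
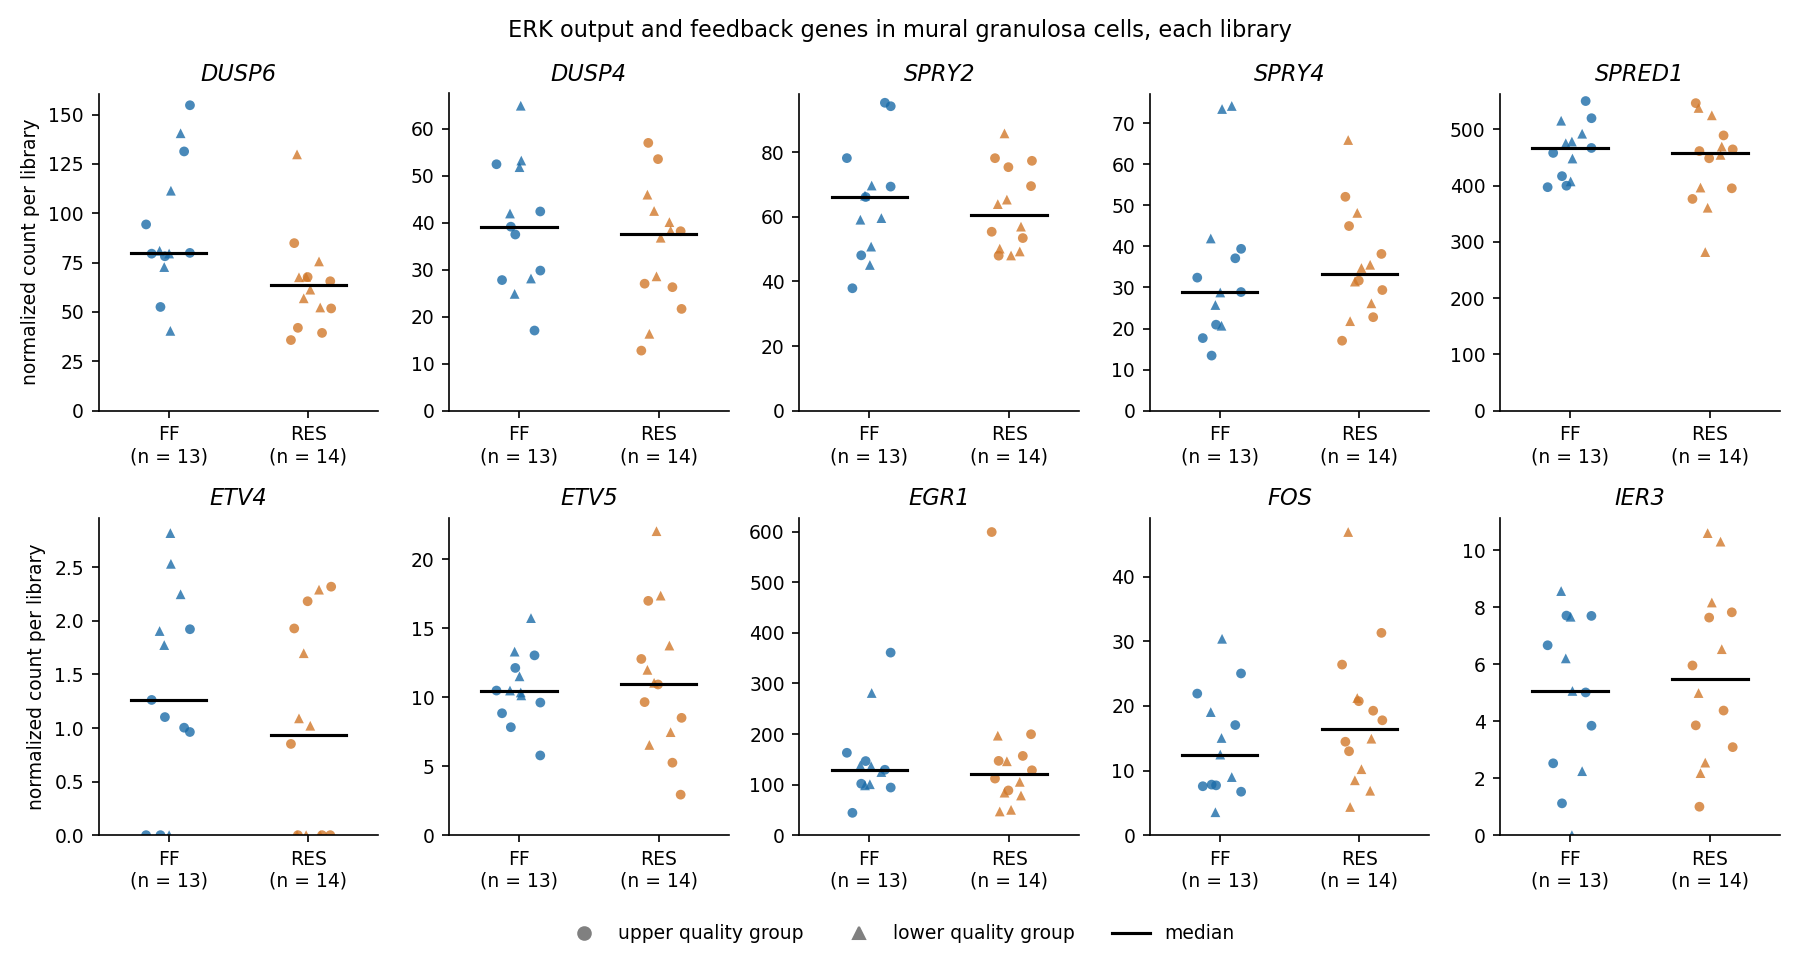
Normalised count of each of the 10 genes in each library, FF (n = 13) in blue and RES (n = 14) in orange, with circles for the upper and triangles for the lower quality group and a bar at the group median. The DUSP6 medians are 79.9 in FF and 63.4 in RES, and the groups overlap for every gene.

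Among the phosphatases, DUSP6 (ENSSSCG00000037910, chr5:93303058-93307510) ranged from 40.4 in FF sow 13 through a median of 79.9 to 154.7 in FF sow 2. In RES it ranged from 35.8 in sow 4 through a median of 63.4 to 129.8 in sow 7, with the next RES library at 84.9. The groups overlapped, but 12 of 14 RES libraries lay under the FF median and 11 of 13 FF libraries above the RES median. DUSP6 fell by 0.56 on the log2 scale (SE 0.19, edgeR adjusted p = 0.0451), which is 0.677 of the FF level.

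The DUSP6 call sat close to the threshold. It was kept in 9 of the 27 fits that left out 1 library and lost in 18, with adjusted p from 0.00577 (without RES sow 7) to 0.0912 (without FF sow 2). The fits that kept it left out FF sow 1, 3, 4, 13 or 14 or RES sow 6, 7, 10 or 13. The log2 fold change itself stayed between -0.69 and -0.48 over those fits. Within the upper quality group (7 FF and 7 RES) DUSP6 fell by 0.84 (SE 0.24, adjusted p = 0.0263, edgeR), where 17.8% of all genes were called. Within the lower group (6 FF and 7 RES) its log2 fold change was -0.30 (SE 0.27, adjusted p = 0.71), where 1 gene of 11384 was called (0.00878%). The difference between those values, -0.53 (SE 0.38, p = 0.168, edgeR interaction term), did not pass the test. With FF sow 10 in the upper group the DUSP6 values were -0.87 (edgeR adjusted p = 0.03), where 9.07% of all genes were called, and -0.21 (edgeR adjusted p = 0.848), and the difference was -0.67 (SE 0.38, p = 0.0872, edgeR interaction term).

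Some markers of other cell types were lower beside DUSP6. By edgeR 40% of the endothelial, 12.5% of the theca and 16.7% of the stromal and vessel-wall markers were called, against 14.1% of all genes. Each called marker was lower in RES GCs, as were 5.85% of all genes, and the theca and stromal shares are 1 and 2 genes. Log2 fold changes were below 0 for 9 of 10 endothelial and 7 of 8 theca markers tested. The same held for 11 of 12 stromal and vessel-wall and 5 of 5 immune markers, against 5996 of 11384 genes. The medians of these lists were -0.50, -0.40, -0.23 and -0.79, against -0.02 over all genes and 0.15 for granulosa markers. Of 10 endothelial markers tested, 4 fell in RES GCs and 0 rose: CDH5, the cadherin of vessel junctions (log2 fold change -0.56, SE 0.15), the sialomucin gene EMCN (-0.78, SE 0.16), the claudin gene CLDN5 (-0.80, SE 0.20) and the junction gene ESAM (-0.62, SE 0.20). Their adjusted p were 0.0113, 0.00283, 0.00797 and 0.0321 (edgeR). ESAM lost its call without FF sow 1 or 2 or RES sow 1, 8 or 9, with adjusted p up to 0.0581, and also with DESeq2 size factors, over all identifiers and with the replicate block, and the other 3 kept theirs in each fit that left out 1 library. Of 8 theca markers tested 1 fell, CYP11A1, the enzyme that makes pregnenolone (-1.28, SE 0.33, adjusted p = 0.0092, edgeR). Of 12 stromal and vessel-wall markers 2 fell, RGS5 (-0.77, SE 0.21, adjusted p = 0.0131) and PDGFRB (-0.62, SE 0.20, adjusted p = 0.0403), both genes of pericytes, and PDGFRB kept its call in 12 of 27 fits with 1 library left out and lost it without a count filter, over all identifiers, with the replicate block, with RIN as a covariate and within both quality groups. Of 5 immune and 9 granulosa markers tested, 0 were called, with 2 and 1 of them at an unadjusted p under 0.05. DESeq2 called 5 endothelial, 2 theca, 2 stromal and vessel-wall, 0 immune and 0 granulosa markers, and voom with sample quality weights 7, 3, 4, 2 and 1, beside 16.8% and 27.9% of all genes. All of these were lower in RES GCs but the granulosa marker, INHBB. CYP11A1 and CLDN5 were called within neither quality group.

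The summed level of 11 endothelial markers had a median of 1858 in FF (range 1371 to 2661) against 1351 in RES (range 980.4 to 2734), and that of 8 theca markers 4140 (2683 to 13809) against 3315 (1456 to 12934). For 12 stromal and vessel-wall markers the median was 26529 in FF (15928 to 45356) against 23992 in RES (12587 to 42246), and for 10 immune markers 174.2 (89.9 to 446.0) against 126.6 (53.4 to 355.4). No marker with an identifier had a median count of 0 in either diet. Across the 14 RES libraries DUSP6 had r = 0.86 with the theca sum (permutation p = 0.00218) and rho = 0.69 (permutation p = 0.0076), but r was 0.42 (permutation p = 0.18) without RES sows 1 and 7. Across the 13 FF libraries its r with the theca sum was 0.72 (permutation p = 0.00559) and rho 0.68 (permutation p = 0.0125), and r was 0.29 (permutation p = 0.383) without FF sows 2 and 12. Within the quality groups the theca values were 0.66 (exact permutation p = 0.102) and 0.93 (exact permutation p = 0.0843) in RES and 0.75 (exact permutation p = 0.0486) and 0.82 (exact permutation p = 0.0528) in FF. With the endothelial sum DUSP6 had, in RES, r = 0.84 (permutation p = 0.00239) and rho = 0.72 (permutation p = 0.00504), and r was 0.65 (permutation p = 0.0247) without RES sows 7 and 14, the libraries farthest from the median sum. In FF the endothelial r was 0.35 (permutation p = 0.24) and rho 0.27 (permutation p = 0.374). With the immune sum r in RES was 0.81 (permutation p = 0.0116) and rho 0.41 (permutation p = 0.151), and r was 0.07 (permutation p = 0.841) without RES sows 1 and 7, while in FF r was -0.44 (permutation p = 0.142) and rho -0.42 (permutation p = 0.158). With the stromal and vessel-wall sum r in RES was 0.59 (permutation p = 0.024) and rho 0.35 (permutation p = 0.226), and r was 0.19 (permutation p = 0.555) without RES sows 7 and 11, while in FF r was -0.31 (permutation p = 0.299) and rho -0.16 (permutation p = 0.591). Within the quality groups of RES the endothelial r was 0.66 (exact permutation p = 0.108) and 0.89 (exact permutation p = 0.0724), and within those of FF 0.14 (exact permutation p = 0.76) and 0.63 (exact permutation p = 0.178). These sums were compared with the members after the marker levels had been seen, in 90 relations of 9 members, 5 lists and 2 diets, and over the 90 the adjusted p of DUSP6 in RES was 0.0538 for the theca sum, 0.0538 for the endothelial sum, 0.116 for the immune sum and 0.196 for the stromal and vessel-wall sum. In FF the theca relation had an adjusted p of 0.0843. Adjusted over all 11384 genes, DUSP6 in RES had 0.114 for the theca sum, with which 7 genes were called (0.0615%; 16.6% at an unadjusted p under 0.05), and 0.102 for the endothelial sum, with which 19 were (0.167%; 18.1% unadjusted). The part of theca, endothelial, immune or stromal cells in the fall of DUSP6 was not tested.

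**Figure D2:**
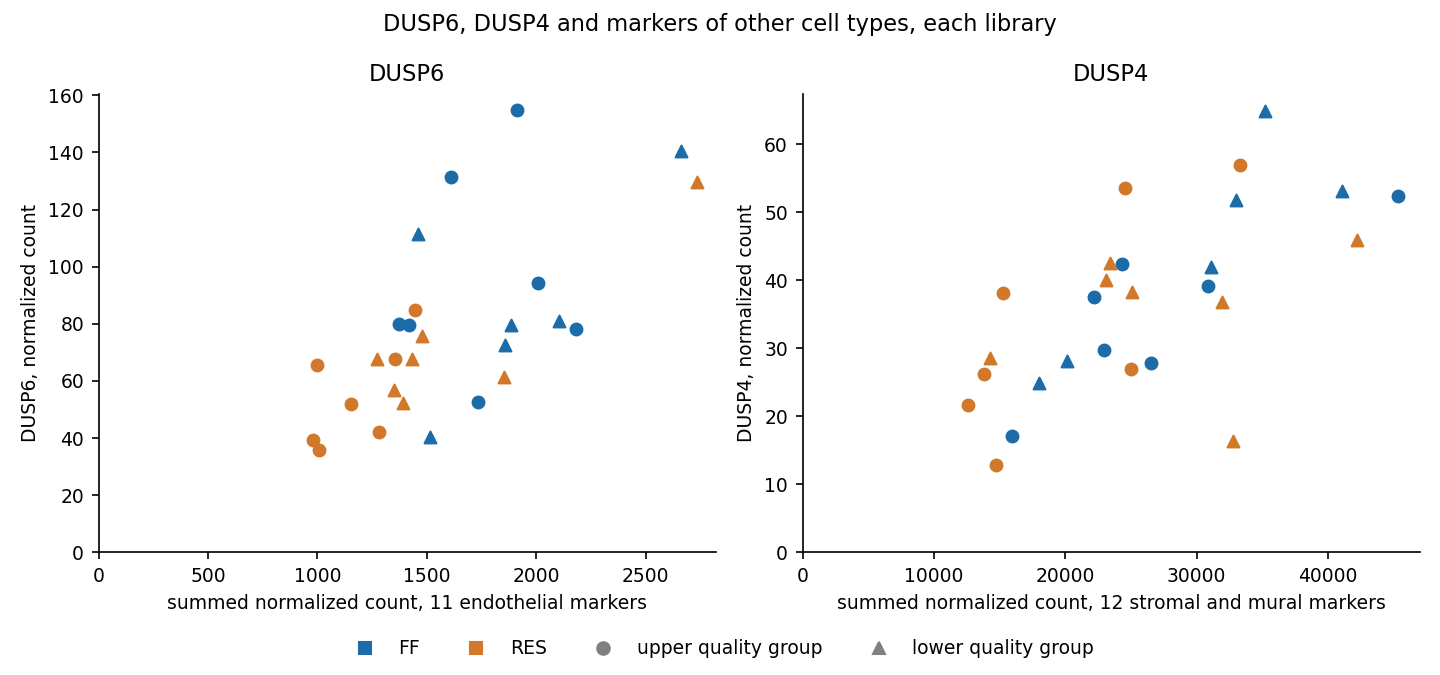
Left, DUSP6 against the summed normalised count of 11 endothelial markers; right, DUSP4 against that of 12 stromal and vessel-wall markers; each point is 1 library, coloured by diet. RES sow 7 is the orange triangle at the far right of the left plot, while in the right plot FF sow 11 (45356) lies beyond it (42246), and the DUSP4 points rise from low to high sums with r = 0.84 in FF and 0.48 in RES.

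DUSP4 (ENSSSCG00000015850, chr15:55491084-55508460), the nuclear phosphatase, ranged from 17.04 in FF sow 7 through a median of 39.1 to 64.8 in FF sow 13. In RES it ranged from 12.8 in sow 4 through a median of 37.5 to 56.9 in sow 9. The groups overlapped almost fully, and the log2 fold change of -0.23 (SE 0.21, edgeR adjusted p = 0.495) had a 95% interval of -0.64 to 0.18. Across FF libraries DUSP4 had, with the stromal and vessel-wall sum, r = 0.84 (permutation p = 0.00046, adjusted p = 0.0414 over the 90 relations), with rho = 0.89 (permutation p = 0.00014). Without FF sows 10 and 11 r was 0.87 (permutation p = 0.00024), and within the quality groups it was 0.83 (exact permutation p = 0.0236) and 0.89 (exact permutation p = 0.0194). In RES the same relation gave r = 0.48 (permutation p = 0.0854) and rho = 0.49 (permutation p = 0.0753), with 0.36 (permutation p = 0.254) without RES sows 7 and 11 and 0.76 (exact permutation p = 0.0415) and 0.18 (exact permutation p = 0.683) within the quality groups. Among the 90 relations the FF one alone had an adjusted p under 0.05. It did not pass over all 11384 genes (adjusted p = 0.0783), of which 10 were called with that sum (0.0878%) and 2061 (18.1%) had an unadjusted p under 0.05, and 43 genes, DUSP4 included, had an r at least as far from 0.

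The Sprouty genes encode inhibitors that growth factor signals induce and that act between receptor and RAF. SPRY2 (ENSSSCG00000009482, chr11:52153695-52158766) lay between 37.9 and 95.2 in FF (median 66.1) and between 48.0 and 85.8 in RES (median 60.4). Its log2 fold change was -0.09 (SE 0.13, edgeR adjusted p = 0.698; 95% interval -0.35 to 0.17). SPRY4 (ENSSSCG00000036322, chr2:143877334-143891280) lay between 13.4 and 74.2 in FF (median 28.9) and between 17.03 and 65.9 in RES (median 33.2). The high ends were 2 FF libraries, sow 12 at 74.2 and sow 10 at 73.4, and RES sow 7 at 65.9, while the other libraries did not pass 52.1. The SPRY4 log2 fold change was -0.02 (SE 0.24, edgeR adjusted p = 0.976; 95% interval -0.48 to 0.45), and its sign changed with the scaling.

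SPRED1 (ENSSSCG00000039393, chr1:132903103-133016725), which brings neurofibromin to RAS, was the steadiest member. It lay between 397.3 and 550.4 in FF (median 467.0) and between 281.9 and 546.7 in RES (median 458.1), a coefficient of variation of 10.5% and 16.8%. Its log2 fold change of -0.11 had the narrowest 95% interval of the members, -0.27 to 0.06 (SE 0.09, adjusted p = 0.426, edgeR).

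Of the ETS factors, ETV5 (ENSSSCG00000023229, chr13:123873346-123930292) lay between 5.78 and 15.7 in FF (median 10.5) and between 2.94 and 22.03 in RES (median 11.0). The RES values spread over 7.51-fold from lowest to highest and the FF values over 2.72-fold. The log2 fold change was 0.02 (SE 0.22, edgeR adjusted p = 0.955; 95% interval -0.41 to 0.46), with a sign that changed with the tool. ETV4 (ENSSSCG00000017379, chr12:19531507-19548303) had 0 to 3 counts per library and 31 counts in all, with 9 of 27 libraries at 0. A difference in ETV4 between diets was not detectable at this depth.

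Of the immediate early genes, EGR1 (ENSSSCG00000014336, chr2:140440829-140445302), a zinc finger factor, had the widest spread in RES, with a coefficient of variation of 89.8%, while in FF those of FOS (57.8%), EGR1 (57.0%) and IER3 (56.5%) were close. In FF it ranged from 44.2 in sow 3 through a median of 129.3 to 361.0 in sow 4, with sow 10 next at 281.1. In RES it ranged from 46.9 in sow 2 through a median of 120.1 to 599.4 in sow 4, with sow 12 next at 199.6. The high libraries belonged to both diets. The log2 fold change was 0.02 (SE 0.32, edgeR adjusted p = 0.976; 95% interval -0.61 to 0.65), and it turned to -0.37 (adjusted p = 0.327) without RES sow 4. In the upper quality group it was 0.45 (SE 0.46) and in the lower group -0.59 (SE 0.33), both with an adjusted p above 0.4, and their difference of 1.04 (SE 0.61, p = 0.0989, edgeR interaction term) did not pass the test. With FF sow 10 in the upper group that difference was 0.56 (SE 0.60, p = 0.362).

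FOS (ENSSSCG00000002383, chr7:98449508-98451971), a partner of JUN in AP-1, ranged from 3.55 to 30.4 in FF (median 12.5) and from 4.36 to 46.9 in RES (median 16.4). The highest RES value was that of sow 7, with sow 12 next at 31.3. Its log2 fold change of 0.34 (SE 0.31, edgeR adjusted p = 0.501) had a 95% interval of -0.28 to 0.95, and it was 0.15 without RES sow 7. IER3 (ENSSSCG00000027607, chr7:23265560-23266905), an immediate early gene tied to cell survival, lay between 0 and 8.57 in FF (median 5.07) and between 0.999 and 10.6 in RES (median 5.48). With 0 to 13 counts per library, its log2 fold change of 0.12 had an SE of 0.34 (adjusted p = 0.846, edgeR).

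**Figure D3:**
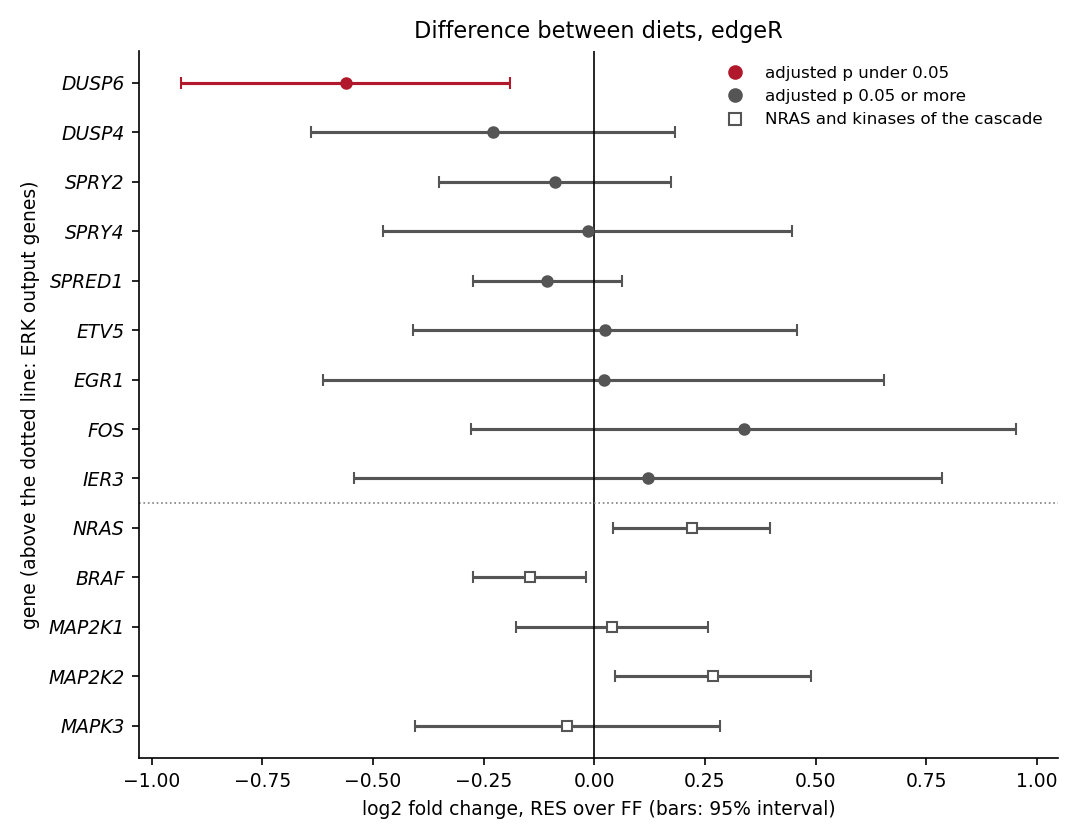
Log2 fold change of RES over FF with a 95% interval for the 9 tested ERK output genes and, below the dotted line, NRAS and 4 kinases of the cascade. DUSP6, in red at -0.56, is the gene with an adjusted p under 0.05, and the intervals of EGR1, FOS and IER3 are the widest.

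Per kilobase of RefSeq exons, the level of SPRED1 was the highest in both diets, with normalised counts of 67.1 ± 7.07 over the 13 FF libraries and 64.2 ± 10.8 over the 14 RES libraries (mean ± SD). EGR1 came next with 39.2 ± 22.4 and 40.6 ± 36.4, and its spread covered that of DUSP6 (32.7 ± 11.9 and 22.8 ± 8.34) and SPRY2 (28.0 ± 7.59 and 27.2 ± 5.57). FOS followed with 12.3 ± 7.13 and 16.0 ± 9.74, over an annotated length of 1143 bases that begins at the start codon. DUSP4 (7.36 ± 2.57 and 6.49 ± 2.47) and SPRY4 (6.22 ± 3.42 and 6.35 ± 2.37) were not apart beyond their spread. IER3 (3.96 ± 2.24 and 4.52 ± 2.40) and ETV5 (2.58 ± 0.615 and 2.71 ± 1.25) were the lowest of the 9 and also overlapped.

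NRAS (ENSSSCG00000032477, chr4:105845913-105853769), the transcript against which the members were set, ranged from 729.3 in FF sow 10 through a median of 1037 to 1250 in FF sow 4. In RES it ranged from 768.8 in sow 7 through a median of 1264 to 1604 in sow 1. Its log2 fold change of 0.22 (SE 0.09, edgeR adjusted p = 0.0975) did not pass the threshold, though voom with sample quality weights called it (0.25, adjusted p = 0.0229), as did edgeR without RES sow 7 (adjusted p = 0.0281). The NRAS ranges of the diets overlapped, with 3 of 14 RES libraries under the FF median.

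Of 26 tested genes of the RAS to ERK cascade, 0 were called by edgeR (14.1% of all genes), with 5 at an unadjusted p under 0.05 (30% of all genes). DESeq2 called 1 of them, the adaptor gene GRB2, and voom with sample quality weights 5, both shares under those of all genes (16.8% and 27.9%), with GRB2 and NRAS higher and BRAF, KSR1 and MRAS lower. Their median log2 fold change was 0.01. BRAF (-0.15, SE 0.07, adjusted p = 0.129) and MAP2K2 (0.27, SE 0.11, adjusted p = 0.106) were not called by edgeR. MAP2K1 stood at 0.04 (SE 0.11) and MAPK3, the gene of ERK1, at -0.06 (SE 0.18).

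Within FF, 0 of the 9 members were called as correlated with NRAS, where 0 of 11383 genes were called (0%; Pearson's r, 100000 permutations, adjusted p under 0.05). At an unadjusted p under 0.05 these counts were 0 of 9 members and 1497 genes (13.2%). Spearman's rho called 0 genes as well, with 899 (7.9%) at an unadjusted p under 0.05. The members' r lay between -0.38 for SPRY4 (permutation p = 0.202, adjusted p = 0.552) and 0.15 for EGR1 (permutation p = 0.611, adjusted p = 0.847), 6 of 9 below 0. Over all genes 45.3% of r were below 0.

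Within RES, 0 of the 9 members were called, where 831 of 11383 genes (7.3%) were. Spearman's rho called 411 (3.61%). At an unadjusted p under 0.05 there were 1 of 9 members and 2657 genes (23.3%). Without RES sows 5 and 7, the libraries farthest from the NRAS median, 0 were called, with 1309 (11.5%) at an unadjusted p under 0.05. Leaving them out also narrows the range of NRAS and lowers the number of libraries. Whether the 831 calls rested on few libraries was not tested. Among members 8 of 9 r were below 0, against 48.0% of all genes, and their median was -0.26 against 0.03 over all genes. DUSP4 had the lowest, r = -0.53 (permutation p = 0.0493, adjusted p = 0.213), with rho = -0.69 (permutation p = 0.00789, adjusted p = 0.1), which made it the 1 member at an unadjusted p under 0.05. Without RES sows 5 and 7 its r was -0.46 (permutation p = 0.13). Within the upper quality group of RES it was -0.39 (exact permutation p = 0.379) and within the lower -0.82 (exact permutation p = 0.0109).

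DUSP6 had r = -0.46 with NRAS in RES (permutation p = 0.0953, adjusted p = 0.305), with rho = -0.22 (permutation p = 0.453). The value was -0.10 (permutation p = 0.766) without RES sows 5 and 7 and -0.06 without RES sow 7 alone, the RES library with the lowest NRAS and the highest DUSP6. In FF the same pair had r = -0.16 (permutation p = 0.602) and rho = -0.04 (permutation p = 0.905). SPRY4 had r = -0.35 in RES (permutation p = 0.222) and 0.0002 without RES sow 7, and r = -0.38 in FF and 0.0043 without FF sow 10, the library with the least NRAS in FF. The negative values of DUSP6 in RES and of SPRY4 in both diets were therefore near 0 without 1 library. Leaving out another library made them more negative. Without RES sow 6 they were -0.56 for DUSP6 and -0.48 for SPRY4 in RES, and without FF sow 12 SPRY4 had -0.57 in FF.

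For EGR1 and FOS the quality groups of FF gave opposite signs. So did those of SPRY4 (0.085 in the upper and -0.35 in the lower group), SPRED1 (-0.046 and 0.14), ETV5 (-0.51 and 0.32) and IER3. EGR1 had r = 0.74 with NRAS in the upper group (exact permutation p = 0.054) and -0.69 in the lower (exact permutation p = 0.144). FOS had r = 0.91 in the upper group of 7 sows (exact permutation p = 0.00119) and -0.53 in the lower group of 6 (exact permutation p = 0.278), and over all 13 sows r = 0.07 (permutation p = 0.827, adjusted p = 0.94), with rho = 0.31 (permutation p = 0.296). Without FF sow 10 the value for FOS was 0.72, and without FF sow 4 it was -0.20. The values of EGR1 and FOS depended on the group of FF sow 10. With that library in the upper group, FOS had r = -0.02 (permutation p = 0.962) in the upper and 0.33 (exact permutation p = 0.567) in the lower group, and EGR1 had 0.10 (permutation p = 0.8) and 0.46 (exact permutation p = 0.367). The signs of FOS were thus turned round, with the upper value near 0, and those of EGR1 were no longer opposite. IER3 had 0.34 in the upper and -0.47 in the lower group, and 0.21 and -0.74 with FF sow 10 in the upper group, so its signs stayed opposite, with every p above 0.05. No gene was called within either quality group under either placing, over 11383 genes. In the smaller of these groups the least p that permutation can give leaves calls over so many genes hardly within reach. The absence of calls there decides little.

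In RES FOS had r = -0.34 (permutation p = 0.245), and 0.11 without RES sow 7, and EGR1 had r = -0.19 (permutation p = 0.546). In FF DUSP4 had r = 0.03 (permutation p = 0.917). SPRY2, SPRED1, ETV5 and IER3 gave r between -0.30 (ETV5, FF) and 0.20 (SPRED1, RES), with permutation p from 0.312 to 0.912. In all, 18 relations of 9 members within 2 diets were computed. The difference in r between diets was also tested for each member by permuting diet over values standardised within diet, and 0 of 9 unadjusted p were under 0.05. DUSP4 came nearest, with r lower by 0.57 in RES (permutation p = 0.105), and the other p lay between 0.525 and 0.949.

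**Figure D4:**
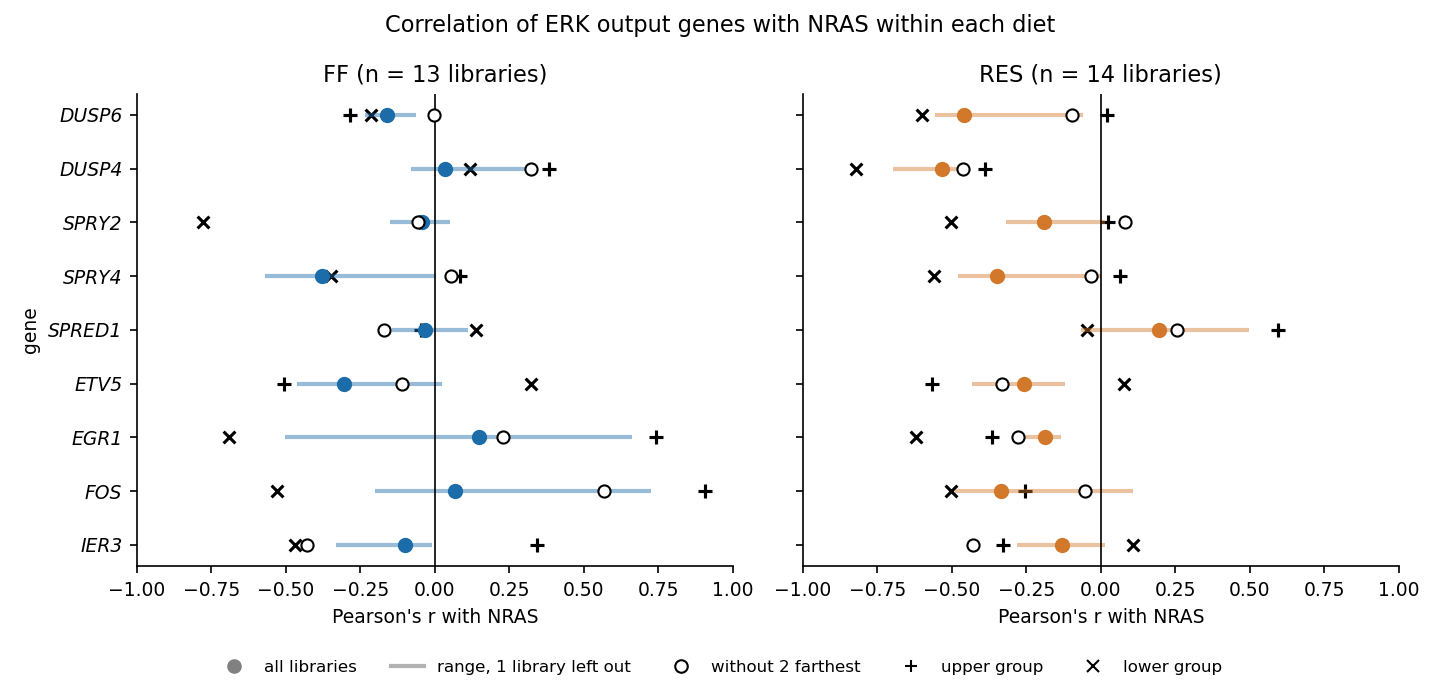
Pearson's r of each member with NRAS within FF (left, n = 13) and RES (right, n = 14): filled points for all libraries, pale bars for the range with 1 library left out, open points without the 2 libraries farthest from the NRAS median, plus signs for the upper and crosses for the lower quality group. In RES 8 of 9 filled points lie below 0, and in FF the upper and lower groups of EGR1 and FOS lie on opposite sides of 0 with FF sow 10 in the lower group.

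The members did not move as 1 block across sows. On log2 TMM-scaled CPM centred within each diet, the median r over their 36 pairs was 0.17 across the 27 libraries, with 25 pairs above 0, and 2 pairs were above 0.5. DUSP6 and SPRY4, both feedback inhibitors, had r = 0.73, and EGR1 and FOS, both immediate early, had r = 0.71. Between the pairs the values were lower: -0.09 for DUSP6 with EGR1, 0.12 for DUSP6 with FOS, 0.19 for SPRY4 with EGR1 and 0.37 for SPRY4 with FOS. DUSP6 with SPRY2 followed at 0.48, while DUSP6 with DUSP4 gave -0.07.

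Within each diet, on normalised counts, DUSP6 and SPRY4 had r = 0.68 in FF (permutation p = 0.0119) with rho = 0.87 (permutation p = 0.00016), and r = 0.78 in RES (permutation p = 0.00148) with rho = 0.69 (permutation p = 0.00819). In FF r was 0.65 (permutation p = 0.0407) without FF sows 2 and 12, and within the quality groups 0.90 (exact permutation p = 0.00179) and 0.92 (exact permutation p = 0.00139). In RES it was 0.44 (permutation p = 0.148) without RES sows 4 and 7, and within the quality groups 0.70 (exact permutation p = 0.0859) and 0.85 (exact permutation p = 0.0375). Over all genes tested against DUSP6 the adjusted p of SPRY4 was 0.364 in FF and 0.252 in RES, where 0 genes were called in either diet. In RES SPRY4 had r = 0.72 with the endothelial sum (permutation p = 0.00562) and 0.77 with the theca sum (permutation p = 0.00116), which over the 90 relations gave adjusted p of 0.0843 and 0.0522, so neither passed. Without the 2 libraries farthest in each sum, RES sow 7 among them, these were 0.52 (permutation p = 0.0827) and 0.54 (permutation p = 0.0696). In FF SPRY4 had r = 0.63 with the theca sum (permutation p = 0.0214, adjusted p = 0.193 over the 90 relations) and rho = 0.75 (permutation p = 0.00445). Without FF sows 2 and 12 that r was 0.55 (permutation p = 0.0599). With the endothelial sum r in FF was 0.36 (permutation p = 0.217).

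EGR1 and FOS had r = 0.80 in FF (permutation p = 0.00073) and rho = 0.84 (permutation p = 0.00075). Without FF sows 4 and 10, the libraries highest in EGR1, r was 0.64 (permutation p = 0.0314), and within the quality groups it was 0.80 (exact permutation p = 0.0111) and 0.90 (exact permutation p = 0.0139). Against FOS, EGR1 had an adjusted p of 0.041, where 316 genes (2.78%) were called, and against EGR1, FOS had 0.449, where 0 were called. In RES r was 0.47 (permutation p = 0.0823) and rho 0.77 (permutation p = 0.00178), and r was 0.76 (permutation p = 0.00227) without RES sows 4 and 12. Within the quality groups of RES it was 0.51 (exact permutation p = 0.24) and 0.89 (exact permutation p = 0.0117). Over 36 pairs in each diet, 3 in FF and 1 in RES had an unadjusted permutation p under 0.05, among them DUSP6 and SPRY2 in FF (r = 0.69, permutation p = 0.0102). Over all genes set against each of the 9 members, 10.6% in FF and 7.15% in RES had such a p, and the shares of member pairs lay below these.

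**Figure D5:**
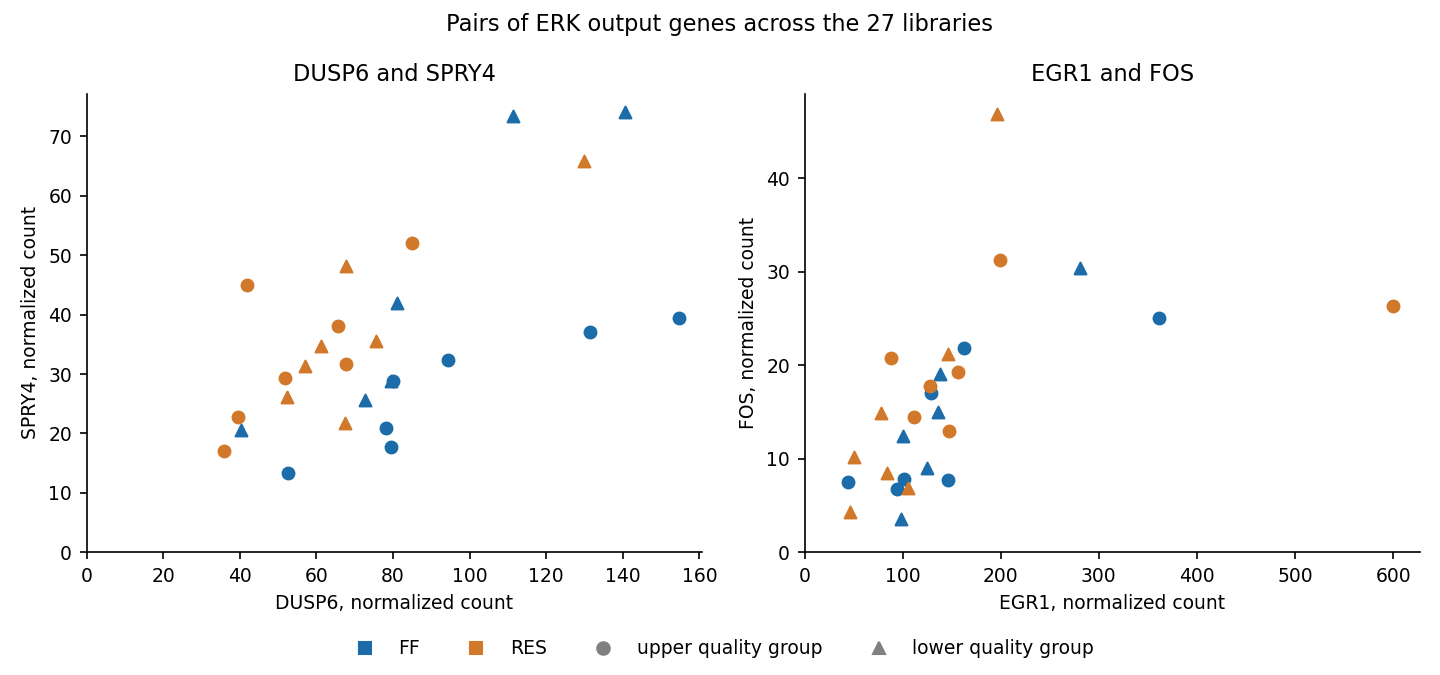
Normalised counts of SPRY4 against DUSP6 (left) and of FOS against EGR1 (right), 1 point per library, with FF in blue, RES in orange, and circles and triangles for the upper and lower quality groups. Both pairs rise together, with r = 0.68 and 0.78 for the left plot and 0.80 and 0.47 for the right plot in FF and RES.

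The genes most like each member, by r over the 27 libraries on the same centred scale, were named by a rule that took the 2 highest. For DUSP6 they were GTF2H3 (0.83), a subunit of transcription factor TFIIH, and CEBPB (0.80), a bZIP factor. For SPRY4 they were ETS2 (0.84), an ETS factor, and LIPG (0.82), the endothelial lipase. DUSP4 was nearest to MAN1C1 (0.72), a mannosidase, and COL5A1 (0.71), a fibrillar collagen. SPRY2 was nearest to TRIM8 (0.67) and HAPSTR1 (0.67), and SPRED1 to KLHL5 (0.79) and the mitochondrial carrier SLC25A36 (0.76).

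ETV5 was nearest to DCAKD (0.75) and GNLY (0.69), the granulysin gene of cytotoxic lymphocytes. EGR1 was nearest to MYOCD (0.77), the coactivator of serum response factor in smooth muscle, and MICAL3 (0.77). FOS was nearest to EGR1 itself (0.71) and to IKBKB (0.70), a kinase of the NF-kB pathway, and IER3 to TMUB2 (0.66) and TRIM8 (0.62). Each of these is the maximum over all tested genes and is given as a description. Of these neighbours TRIM8 alone was called between diets, lower in RES GCs (log2 fold change -0.37, SE 0.12, adjusted p = 0.0316, edgeR).

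Of 17 other tested genes that ERK is known to induce or that restrain it, 1 rose and 0 fell: SPHK1, sphingosine kinase 1 (0.87, SE 0.29, adjusted p = 0.0407, edgeR), whose call was kept in 14 of 27 fits with 1 library left out and lost with upper-quartile factors, with the replicate block and in the lower quality group (adjusted p = 0.917). Voom with sample quality weights called 4 of the 17, SLC20A1 higher and ETV1, EPHA2 and TRIB1 lower, and did not call SPHK1. Of 27 other immediate early genes tested, 0 rose and 2 fell: NR4A2, an orphan nuclear receptor (-0.74, SE 0.21, adjusted p = 0.0184), and KLF2, a Krüppel-like factor best known from endothelium (-0.77, SE 0.21, adjusted p = 0.0132). Both kept their calls in each fit that left out 1 library and lost them within the lower quality group (adjusted p = 0.542 and 0.648, edgeR). The difference between quality groups was -0.97 for KLF2 (p = 0.0147, adjusted p = 0.323, edgeR interaction term) and 1.49 for SPHK1 (p = 0.0081, adjusted p = 0.293), which did not pass after adjustment. The median log2 fold changes of these lists were -0.17 and -0.07, and 5.88% and 7.41% of their tested genes were called against 14.1% of all genes.

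Of 21 tested ligands and receptors upstream of RAS, 0 rose and 2 fell: BTC, the EGF-like ligand betacellulin (-1.54, SE 0.51, adjusted p = 0.0403, edgeR), and PDGFRB, the receptor named above among pericyte genes, which is 9.52% of the list against 14.1% of all genes. DESeq2 called 3, HGF being added, and voom with sample quality weights 6, with PDGFRA, IGF1R and INSR as well, and each of these was lower in RES GCs. BTC lost its call in 11 of 27 fits with 1 library left out, with adjusted p up to 0.187 and a log2 fold change of -0.86 without FF sow 14, and also with the replicate block, with the quality group or RIN as a covariate and within both quality groups. The median log2 fold change of this list was -0.21. AREG and EREG, the EGF-like ligands of the ovulatory response, stayed under the filter on low counts.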

How the data were processed

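The study isolated mural granulosa cells by laser capture microdissection, removed ribosomal RNA and sequenced dUTP libraries with unique molecular identifiers. Per the file headers and the submitters' processing notes, the authors aligned reads to Sscrofa11.1 with HISAT2 2.2.1, removed PCR copies with UMI-tools 1.1.4 and deposited raw counts per Ensembl gene from featureCounts 1.6.2. The counting command names neither a strand nor an overlap option, so by the default of the tool reads on exons of more than 1 gene, on either strand, were left uncounted.

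Tested genes had a symbol and averaged at least 5 counts across the 27 libraries, with 38 small RNA symbols left out, which gave 11384 genes. RES was compared with FF by edgeR 4.0.16 (TMM, quasi-likelihood, R 4.3.3), and genes were called under a Benjamini-Hochberg adjusted p of 0.05 over all tested genes. DESeq2 1.42.0 and limma 3.58.1 voom with sample quality weights were alternatives. Correlations are Pearson's r and Spearman's rho on counts divided by DESeq2 size factors, with two-sided permutation tests (100000 permutations, or all of them in groups of 7 or fewer), adjusted over all tested genes. Python 3.11.15 and matplotlib 3.10.9 were used for correlations and figures.

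Named genes were all members and NRAS, kinases of the cascade (some are not reported here), every called gene of the other lists up to 4 per direction, and the 2 genes nearest to each member. The members and lists were chosen with earlier results of these data known. Quality groups were split where libraries parted by how many bases reached a Phred score of 20. P-values measure the spread between sows, each of them 1 library. In a simulation of RES against FF over 11384 genes, edgeR recovered 175 of 200 changed genes and called 11 unchanged ones. Recovery at log2 fold changes as small as those of the members was not tested. List genes without a symbol in the name table, such as FOXL2 and CYP19A1, were not analysed here.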

Additional observations from a re-analysis of the deposited data

How the results depend on the processing

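The number of genes called between diets, 1610, was 3177 with voom and sample quality weights and 1 in the lower quality group alone, where 1385 genes had an unadjusted p under 0.05, and 1182 to 2350 with 1 library left out. The count of members called, 1, became 0 with DESeq2 size factors in edgeR, without a count filter, over all identifiers, with RIN as a covariate and in the lower quality group, and 0 to 1 with 1 library left out. With FF sow 10 in the upper quality group, added after the results were seen, 1033 genes were called in the upper and 0 in the lower group (1325 there at an unadjusted p under 0.05), and members called were 1 and 0; with its other RIN value the RIN fit called DUSP6 (adjusted p = 0.0484). Of the DUSP6 fits other than those that left out 1 library, 9 of 16 kept the call, with log2 fold changes of -0.87 to -0.21. The cause was not tested. With sow number as a replicate block over 26 libraries the count of members called was 0 (DUSP6 -0.52, adjusted p = 0.0565) and 1084 genes were called. The numbers mark no shared animal, and deviations of same-numbered libraries correlated by -0.242 to 0.31 (median 0.01), with 1 of 13 pairs over 0.1 and 0 of them best with its own number. IER3 has no value under filterByExpr, which removes it.

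Members that were not called changed sign as follows. SPRY4 was 0.091 with voom, 0.033 with DESeq2 size factors, 0.032 over all identifiers, 0.013 with the replicate block, 0.047 with RIN and 0.26 in the upper group, and -0.12 to 0.13 with 1 library left out. ETV5 was -0.21 with voom, -0.11 with the block and -0.047 in the upper group, and -0.077 to 0.10 with 1 library left out. EGR1 was -0.14 with voom, -0.011 with upper-quartile factors, -0.15 with the block, -0.044 with the quality group as a covariate and -0.59 in the lower group, and -0.37 to 0.20 with 1 library left out. IER3 was -0.10 in the upper group. With FF sow 10 in the upper group, SPRY2 was 0.051 and EGR1 -0.28 in the lower group, ETV5 -0.019 with the quality covariate and -0.060 in the upper group, and IER3 -0.10 in the upper group. No member but DUSP6 was called under any of these settings.

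The 831 genes called with NRAS in RES became 411 with Spearman's rho, 501 with TMM-scaled counts and 0 without the 2 libraries farthest from the NRAS median or within either quality group, and 111 (without RES sow 7) to 1064 with 1 library left out. In FF the count was 0 to 7, the latter without FF sow 11. Without RES sow 1, 5, 6 or 10 the RES count was 214, 443, 485 or 528. Signs of r in FF changed for DUSP4 on the log2 scale (-0.019), SPRY2 with rho (0.028), SPRY4 without the 2 farthest libraries (0.054) and in the upper group (0.085), SPRED1 with residuals within quality groups (0.024) and in the lower group (0.14), IER3 in the upper group (0.34) and, in the lower group, ETV5 (0.32), EGR1 (-0.69) and FOS (-0.53). With FF sow 10 in the upper group they changed in FF for DUSP4 (-0.17), SPRED1 (0.019), FOS (-0.023) and IER3 (0.21) in the upper group and for DUSP6 (0.090), SPRY4 (0.25) and ETV5 (0.022) in the lower. In RES they changed for SPRY2 without the 2 farthest libraries (0.081) and, in the upper group, DUSP6 (0.021), SPRY2 (0.024) and SPRY4 (0.064), and in the lower group for SPRED1 (-0.046), ETV5 (0.079) and IER3 (0.11). With 1 library left out, r in FF ran from -0.081 to 0.31 for DUSP4, -0.15 to 0.0497 for SPRY2, -0.57 to 0.0043 for SPRY4, -0.14 to 0.11 for SPRED1, -0.46 to 0.025 for ETV5, -0.50 to 0.66 for EGR1 and -0.20 to 0.72 for FOS. In RES it ran from -0.32 to 0.013 for SPRY2, -0.48 to 0.0002 for SPRY4, -0.067 to 0.50 for SPRED1, -0.49 to 0.11 for FOS and -0.28 to 0.015 for IER3. No member was called with NRAS under any setting. Depth limits IER3 and ETV4 most.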
